A study of Mus musculus with 107 samples.

Results

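The comparison concerns mouse ear skin given indomethacin without sulfur mustard, set against skin that received neither drug nor mustard. Its members are 12 ears of 9 animals, of 107 samples of 42 animals in the series, taken by their treatment labels and animal numbers. They are the right ears of indomethacin animals 511, 512, 514 and 515 (n = 4), each given 1.34 mg (3.74 µmol) of indomethacin in 20 µL of ethanol. The control is the left ears of animals 507, 515 and 520, given ethanol alone (n = 3), together with 5 ears of naive animals 501, 502 and 503, which received nothing. The 2 ears of a naive animal were averaged where both were measured, so that the control held 6 values. The ethanol ears were not from separate ethanol animals: the right ear of animal 507 had dimercaprol, that of animal 515 had indomethacin and that of animal 520 had octylhomovanillamide. An 8 mm skin biopsy was taken at 24 h, and the labels used here give no strain, age or sex. Animals were numbered in runs by drug, and handling that followed the numbering cannot be told apart from the drug. Each ear was hybridised once to an Affymetrix mouse expression array (array A), and no array was repeated, so that p-values measure the spread between these animals and ears.

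Indomethacin inhibits the cyclooxygenases, the enzymes that turn arachidonic acid into prostaglandins, and it is used as an anti-inflammatory drug. In skin, prostaglandins made by keratinocytes, fibroblasts and immune cells act on receptors of the same or neighbouring cells. Glucocorticoids act through another route, a nuclear receptor that binds DNA and raises the RNA of a well-known set of genes, among them Tsc22d3, Fkbp5, Cebpd and Zbtb16.

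Few transcripts were called between indomethacin and control ears. Of 15925 probe sets tested, 9 passed an adjusted p of 0.05 (0.0565%; limma with Benjamini-Hochberg adjustment), 5 higher and 4 lower, in 7 named genes and 1 probe set without a gene name here. Txnip, Tsc22d3, Fkbp5 and Cebpd rose, and Yrdc, Sostdc1 and Irx4 fell. Of these 9 probe sets, 7 differed at least 2-fold. At an unadjusted p under 0.05 there were 1632 of the 15925 probe sets, 856 higher and 776 lower. With 4 indomethacin and 6 control values, transcripts that differ can go uncalled, so the number called does not measure how many differed.

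The promoters of 3 of the genes that rose are shown, and the promoter source used here held no entry for Cebpd. Each stretch is the 250 bases before the RefSeq start of the gene (mouse build GRCm38.p6), printed 5′ to 3′ on the strand of the gene. Capitals mark every match to 3 motifs searched on both strands: the glucocorticoid receptor half-site AGAACA (reverse TGTTCT), the E-box CACGTG and the CCAAT box (reverse ATTGG), which do not overlap one another here. The half-site occurs in 16.1% of 32851 mouse promoter windows of this length, the E-box in 6.02% and the CCAAT box in 33.8%. The Txnip window lies at chr3:96557707-96557956 on the plus strand, the Tsc22d3 window at chrX:140600523-140600772 on the minus strand and the Fkbp5 window at chr17:28486150-28486399 on the minus strand.
Txnip: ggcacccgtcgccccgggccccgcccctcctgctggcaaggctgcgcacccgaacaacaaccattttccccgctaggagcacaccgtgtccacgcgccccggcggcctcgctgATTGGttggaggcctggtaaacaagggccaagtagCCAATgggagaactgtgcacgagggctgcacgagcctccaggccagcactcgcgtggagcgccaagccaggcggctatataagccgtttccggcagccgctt
Tsc22d3: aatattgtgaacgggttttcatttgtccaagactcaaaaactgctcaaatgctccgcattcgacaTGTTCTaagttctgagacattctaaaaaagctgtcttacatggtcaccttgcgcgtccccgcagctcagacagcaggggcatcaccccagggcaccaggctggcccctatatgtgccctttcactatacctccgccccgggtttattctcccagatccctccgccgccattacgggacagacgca
Fkbp5: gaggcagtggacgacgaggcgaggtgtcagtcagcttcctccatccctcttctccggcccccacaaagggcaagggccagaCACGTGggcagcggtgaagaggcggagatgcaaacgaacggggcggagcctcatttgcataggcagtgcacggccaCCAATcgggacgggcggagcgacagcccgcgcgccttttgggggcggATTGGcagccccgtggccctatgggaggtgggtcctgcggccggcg
Txnip had CCAAT boxes at 137 and 102 bases before its start and no half-site or E-box. Tsc22d3 has 3 promoter entries, of which the one printed held a half-site at 185 bases before the start and the other entries held none of the motifs. The share of windows with a half-site given above is per single window, whereas 3 windows were searched for this gene. Fkbp5 had an E-box at 169 bases and CCAAT boxes at 93 and 46 bases before its start, and no half-site. The windows of Irx4 (chr13:73260247-73260496, plus strand) and Yrdc (chr4:124850509-124850758, plus strand), genes that fell, held none of the 3 motifs. A match describes the letters of these windows and is no measure of binding.

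Values are scaled signals, array intensities brought to a common trimmed mean of 500, and differences are log2 of the scaled signal plus 16. Txnip encodes thioredoxin-interacting protein, an arrestin-family protein that restrains glucose uptake. Its probe set 1415997_at read 5039.7, 4756, 5337 and 4505 in the indomethacin ears of animals 511, 512, 514 and 515. The ethanol ears of animals 507, 515 and 520 read 2192, 3077 and 1546, and the naive ears read from 1292 to 2222 with a median over all 8 control ears of 1545. Every indomethacin ear lay above every control ear, and the difference was 1.35 ± 0.20 (SE) on the log2 scale, a 2.56-fold rise (adjusted p = 0.0125). The brighter Txnip probe set, 1415996_at, was higher by 1.41 (adjusted p = 0.0709) and did not pass. There the ethanol ear of animal 515 read 7332, inside the range of the indomethacin ears (6965 to 8684), while the other 7 control ears read at most 3687.

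Tsc22d3 encodes a leucine zipper protein known as GILZ, which mediates part of the glucocorticoid response. Probe set 1420772_a_at read 3876, 5853, 4611 and 3799 in indomethacin ears, 1099, 3149 and 2417 in ethanol ears and 1419 to 2432 in naive ears. The groups did not overlap, and the rise was 1.18 ± 0.21 (SE) on the log2 scale (adjusted p = 0.0304). A further probe set of Tsc22d3, 1425281_a_at, rose by 1.03 (adjusted p = 0.0256), and 1425557_x_at was higher by 0.49 without passing (adjusted p = 0.356).

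Fkbp5 encodes a co-chaperone that lowers the hormone affinity of the glucocorticoid receptor. Probe set 1448231_at read 1336, 1044, 1705 and 667 in indomethacin ears, 580.0, 614 and 457 in ethanol ears and 246 to 453 in naive ears. Indomethacin animal 515 was the lowest of its group and lay close to its own ethanol ear, yet above it. The rise was 1.27 ± 0.22 (SE; adjusted p = 0.0256), and the brighter probe set 1416125_at was higher by 0.95 without passing (adjusted p = 0.0761).

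Cebpd encodes a leucine zipper transcription factor induced in acute responses. Probe set 1456605_at read 455, 372, 416 and 381 in indomethacin ears, 162, 221 and 223 in ethanol ears and 143 to 237 in naive ears. No value overlapped, and the rise was 1.06 ± 0.17 (SE; adjusted p = 0.0182). Its brighter probe set 1423233_at was higher by 1.13 with overlapping groups (adjusted p = 0.0819).

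Among the genes that fell, Yrdc encodes an enzyme of the threonylcarbamoyl modification of transfer RNA. It read 736, 560, 607 and 661 in indomethacin ears, 1077, 1058 and 968 in ethanol ears and 823 to 1146 in naive ears, a fall by 0.63 on the log2 scale with an SE of 0.10 (adjusted p = 0.0182). Sostdc1 encodes a secreted modulator of BMP and Wnt signalling. Probe set 1460250_at read 144, 71.9, 158 and 287 in indomethacin ears, 343, 380 and 298 in ethanol ears and 440 to 595 in naive ears. It fell by 1.42 with an SE of 0.24 (adjusted p = 0.0256), and in every naive ear it lay above every ethanol ear. Probe set 1449340_at of Sostdc1 had a log2 difference of −0.98 and did not pass (adjusted p = 0.066).

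Irx4 encodes an Iroquois homeobox transcription factor. It read 150, 41.3, 121 and 50.1 in indomethacin ears, 210, 213 and 272 in ethanol ears and 240.0 to 352 in naive ears. All indomethacin ears lay below all control ears, and the fall was by 1.54 with an SE of 0.27 (adjusted p = 0.0256). The probe set without a gene name here, 1451979_at, fell by 0.69 (adjusted p = 0.0256), from 939 ± 69.5 in the 8 control ears to 586 ± 85.2 (SD, n = 4).

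**Figure D1:**
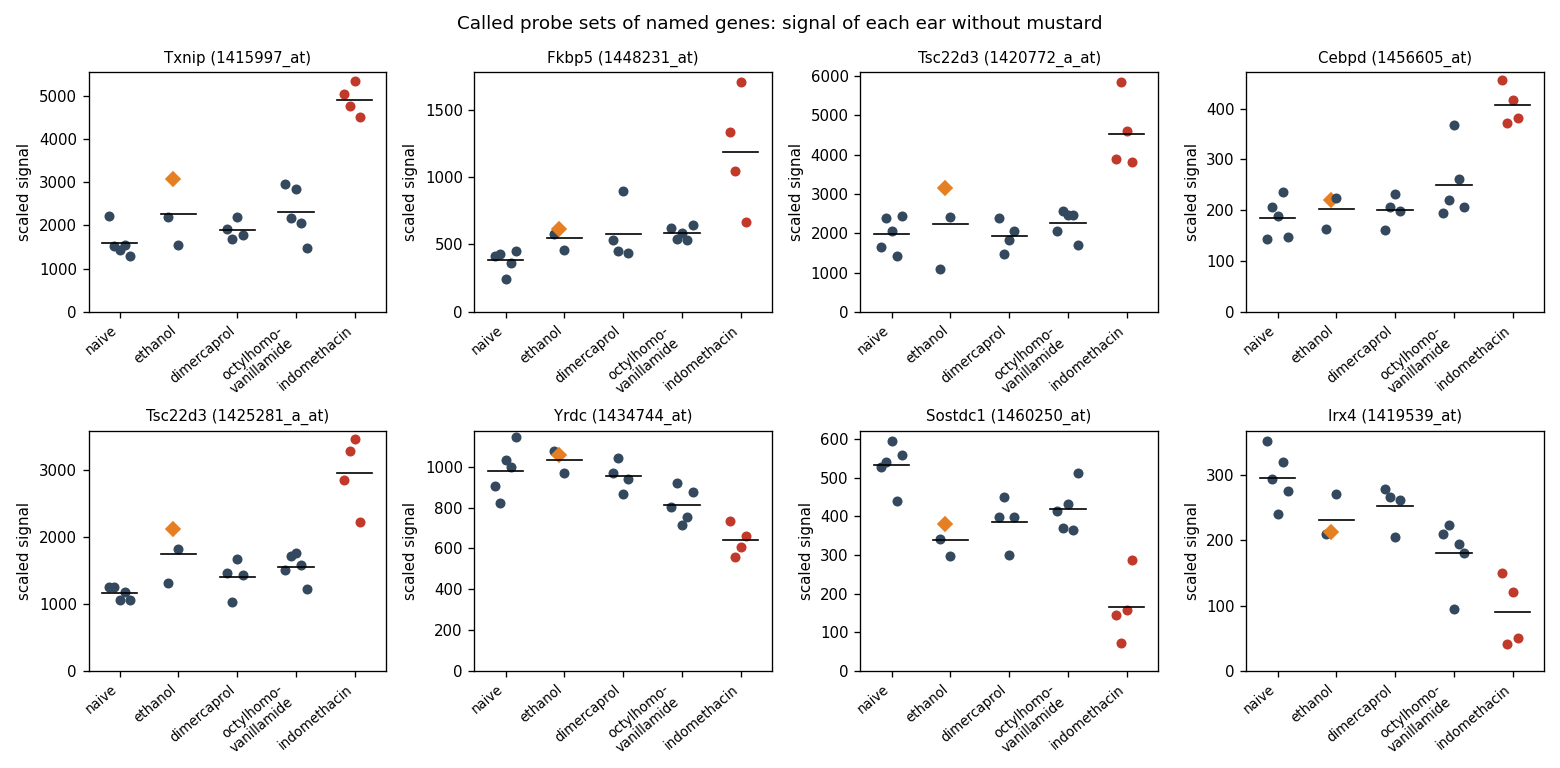
Scaled signal (vertical axes, linear, from 0) of the 8 called probe sets with a gene name in every ear without mustard, by group. Points are ears, black lines are group means, and the orange diamond is the ethanol ear of animal 515, whose right ear had indomethacin. Indomethacin ears lie above every naive and ethanol ear for the 5 probe sets that rose and below them for the 3 that fell.

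The number of calls depended on the ears used. It was 4, 5, 0 and 33 without indomethacin ears 511, 512, 514 and 515, 2, 3 and 1 without naive animals 501, 502 and 503, and 36 without the ethanol ear of animal 515. No probe set was called without scaling of the arrays, or against ethanol ears alone.

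With 1 probe set per gene, the brightest, 9598 genes were compared and 1 rose (0.0104%, Tsc22d3) while 2 fell (0.0208%, Irx4 and Yrdc). The lists of named genes were therefore filled by the smallest unadjusted p to 15 higher and 15 lower genes. The 15 higher genes differed by 0.48 to 1.76 on the log2 scale, with adjusted p-values up to 0.124. Of them 9 had all 4 indomethacin ears above all 8 control ears, as had 0.969% of all genes; these genes were ranked on the same values, so the share is a description.

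Pdk4, a kinase that switches off pyruvate dehydrogenase, read 1077, 1278, 1534 and 691 in indomethacin ears. Its ethanol ears read 129, 927 and 520.0, and its naive ears 208 to 337. Ear 515 given ethanol overlapped the indomethacin ears, and the difference of 1.76 ± 0.42 (SE) did not pass (adjusted p = 0.124). Angptl4, a secreted inhibitor of lipoprotein lipase, read 432, 559, 475 and 343 in indomethacin ears, 155, 307 and 199 in ethanol ears and 47.8 to 126 in naive ears. Its groups did not overlap and the difference was 1.59 ± 0.33 (SE; adjusted p = 0.0709).

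Sesn1, a sestrin of the stress response, was higher by 0.65 (adjusted p = 0.066), and Trp53inp1, a p53-induced nuclear protein, by 1.15 (adjusted p = 0.124). Mt1, a metallothionein that binds zinc and copper, read 11004, 6170.3, 11501 and 6119 in indomethacin ears against 3050.1 to 6745 in control ears. The ethanol ear of animal 515 was again the highest control ear and overlapped the lower pair of indomethacin ears (0.89 on the log2 scale, adjusted p = 0.0761). The others were Cited2, a transcriptional coregulator (0.56), the cytoskeletal linker Dst (0.74), the metalloprotease Adamts1 (0.72), the homeobox gene Irx2 (0.48), the chaperone Dnajb8 (0.62) and the taurine transporter Slc6a6 (0.69), none of which passed adjustment.

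The 15 lower genes differed by 0.39 to 1.56 in size, with adjusted p-values up to 0.154. Of them 14 had all indomethacin ears below all control ears, against 0.938% of all genes, with the same limit. Nkd2, an inhibitor of Wnt signalling that binds Dishevelled, read 49.2, 107, 52.5 and 101 in indomethacin ears, 122, 125 and 278 in ethanol ears and 240 to 340 in naive ears. Its difference was −1.41 ± 0.28 (SE; adjusted p = 0.066). Ly6g6d, a surface protein of the Ly6 family, was dim, at 14.2 to 32.5 in indomethacin ears and 36.2 to 298 in control ears. Rnase2b, a ribonuclease of the eosinophil-associated family, had a difference of −1.32 (adjusted p = 0.0761), and near-identical family members may share its probes.

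Ccnd2, the cell cycle regulator cyclin D2, had a difference of −0.64 and Kpna2, an importin, one of −0.73. Pfn1, which binds actin, had a difference of −0.66 and Stxbp2, a vesicle fusion protein, one of −0.73. The differences of Ppm1g, a phosphatase, Mphosph10, a nucleolar protein, Ywhaq, a 14-3-3 protein, Cdc42se1, a CDC42 effector, and Slco3a1, an anion transporter, lay between −0.52 and −0.39. None of these 9 genes passed adjustment.

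**Figure D2:**
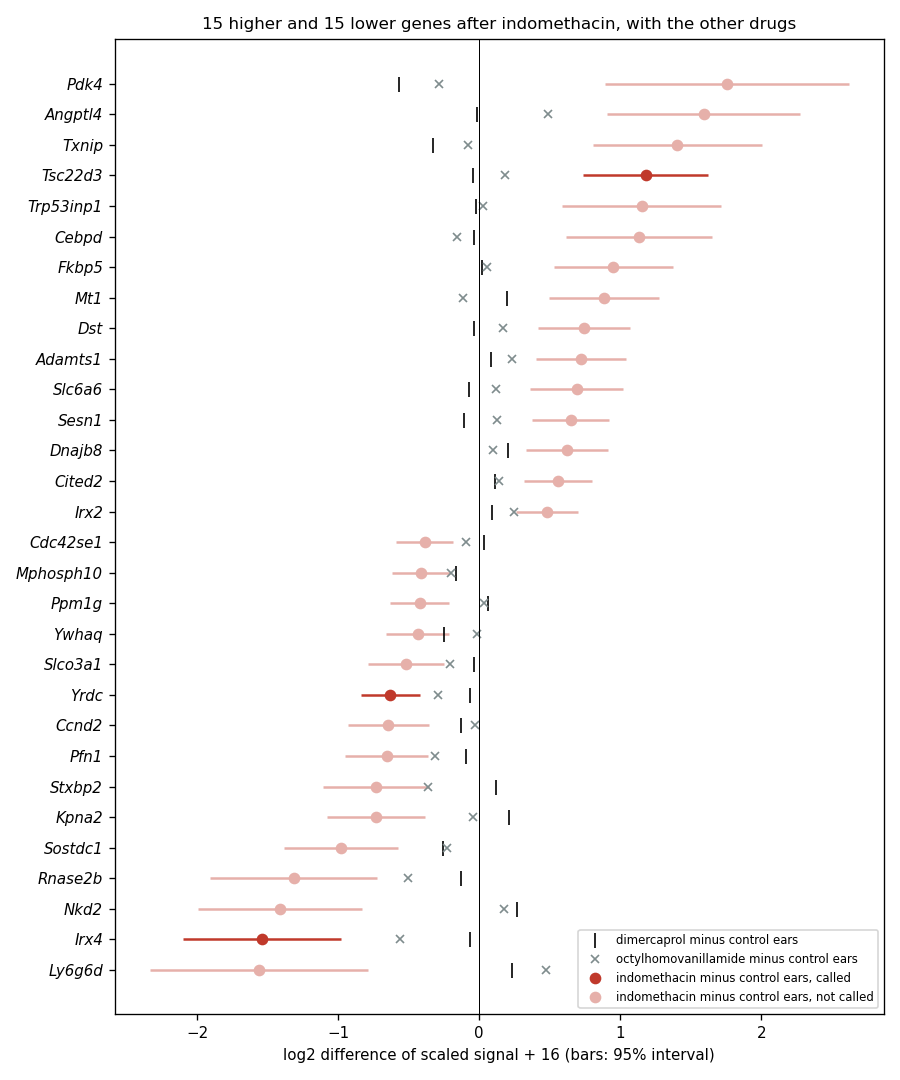
Difference from control ears on the log2 scale (horizontal axis) of the 15 higher and 15 lower genes after indomethacin, as circles with 95% intervals, dark where called and pale where not. Bars mark dimercaprol ears and crosses octylhomovanillamide ears against the same controls. The 3 called genes are Tsc22d3, Yrdc and Irx4, and over the lower genes the crosses have a median of −0.20, with that of Irx4 at −0.56.

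The other drugs were compared with the same control ears, so that the differences share their controls, and their doses differ (6.25 mg of dimercaprol in 10 µL, n = 4; 0.6 mg of octylhomovanillamide in 30 µL, n = 5). Over the 15 higher genes, dimercaprol ears had a median difference of −0.02 (−0.57 to 0.20) and octylhomovanillamide ears one of 0.12 (−0.29 to 0.49). Over the 15 lower genes the medians were −0.07 (−0.26 to 0.27) and −0.20 (−0.56 to 0.47). Irx4 and Yrdc, which fell with indomethacin, differed from control by −0.56 and −0.29 in octylhomovanillamide ears, and Rnase2b by −0.51, without passing adjustment. By limma, neither drug gave a called probe set against control, with 586 and 922 probe sets at an unadjusted p under 0.05. Set directly against dimercaprol ears, indomethacin ears differed in 1 probe set (0.00628%), Txnip 1415997_at, which rose by 1.37 (adjusted p = 0.0393). Against octylhomovanillamide ears none was called, with 1629 at an unadjusted p under 0.05.

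The outcome depended on which control ears were used. Against naive animals alone, with the ethanol ears kept in the fit as a group of their own, indomethacin ears differed in 26 probe sets (0.163%), 20 higher and 6 lower; without scaling 2 were called, both lower. Against ethanol ears alone limma called none, with 1116 at an unadjusted p under 0.05. Between ethanol and naive ears limma called no probe set, with 501 at an unadjusted p under 0.05. The ethanol ear of animal 515, the only control ear from an animal that also had indomethacin, was the highest of the 8 control ears for 4 of the 5 probe sets that rose. It was the highest for 10 of the 15 higher genes and for 1128 of all 9598 genes. For the 15 lower genes it was the lowest control ear in 5, and over all genes in 1033. Txnip 1415997_at was higher by 1.55 against naive animals (adjusted p = 0.00533) and by 1.16 against ethanol ears, and Angptl4 by 2.17 (adjusted p = 0.00533) and 1.02.

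Genes of the glucocorticoid response were higher as a list. All 11 listed genes were measured, and 10 were higher at an unadjusted p under 0.05, against 5.64% of all genes, while 1, Tsc22d3, passed adjustment over all probe sets when each gene was represented by its brightest probe set. With their dimmer probe sets, described above, Fkbp5 and Cebpd passed as well. The median difference was 0.94 over the list and 0.02 over all genes. The list was chosen with results of these data known, so its counts are no independent evidence of its direction.

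Beyond the genes already described, Ddit4, an inhibitor of mTOR signalling, read 6206, 2614, 2788 and 3025 in indomethacin ears, 838, 3386 and 2409 in ethanol ears and 912 to 1502 in naive ears. Indomethacin ear 511 was far above the others, and the ethanol ear of animal 515 lay inside the indomethacin range (1.17 ± 0.34, SE; adjusted p = 0.223). Errfi1, which inhibits the EGF receptor, read 3528, 3956, 3035 and 2507 in indomethacin ears. Its ethanol ears read 1864, 2699 and 2253 and its naive ears 1134 to 1601, with a difference of 0.94 (adjusted p = 0.156). Zbtb16, a zinc finger repressor also called PLZF, averaged 425 ± 22.7 (SD, n = 4) in indomethacin ears and 266 ± 99.4 (SD) over the 8 control ears, without overlap, with a difference of 0.75 (adjusted p = 0.29).

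Lcn2, a secreted iron-siderophore carrier, was higher by 0.93, the transcription factor Klf9 by 0.52 and the kinase Sgk1 by 0.34, at unadjusted p-values of 0.0138, 0.0134 and 0.0437. Lcn2 was also 0.57 higher in dimercaprol ears and 0.60 higher in octylhomovanillamide ears. Nr3c1, the glucocorticoid receptor itself, differed by −0.01 with an SE of 0.12 (adjusted p = 0.995).

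Summed over the 11 genes, the scaled signal was 26510, 25090, 24970 and 19410 in indomethacin ears 511, 512, 514 and 515. It was 11660, 20010 and 18110 in the ethanol ears of animals 507, 515 and 520, and 10040 to 12630 in the naive ears. The ethanol ears of animals 515 and 520 therefore lay above all naive ears, and that of animal 515 above its own indomethacin ear. The list's median was 1.23 against naive animals and 0.77 against ethanol ears, and 0.56 for ethanol against naive ears. Against ethanol ears alone 6 of the 11 genes were higher at an unadjusted p under 0.05. With dimercaprol the median was −0.04 and with octylhomovanillamide −0.02, against the same controls.

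**Figure D3:**
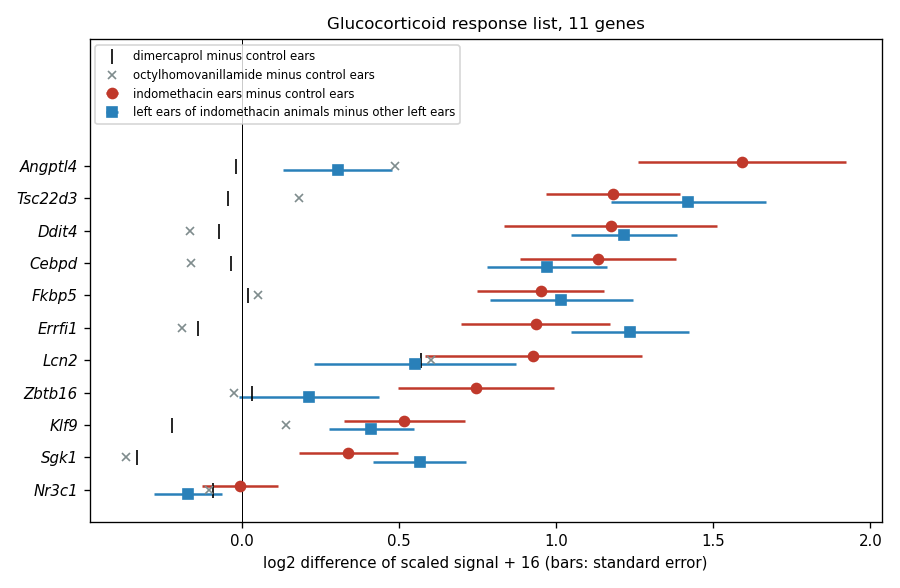
Differences on the log2 scale (horizontal axis, bars are standard errors) of the 11 genes of the glucocorticoid response list. Circles are indomethacin minus control ears, squares are left ears of indomethacin animals minus left ears of other animals in the mustard experiment, and bars and crosses without error are the other drugs without mustard. Circles lie to the right of 0 for 10 genes and at 0 for Nr3c1. The values of dimercaprol and octylhomovanillamide have medians of −0.04 and −0.02, but for Lcn2 both lie to the right of 0. For Angptl4 that of octylhomovanillamide is 0.49.

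The same genes were examined in left ears of the mustard experiment, which share no ear or animal with the comparison above. This comparison was added after the results without mustard had been seen. In these animals the right ear had 0.08 mg of mustard, in some after a drug given 15 min earlier, and the left ear had methylene chloride alone. They too were numbered in runs by drug, and handling that followed the numbering cannot be told apart from the drug. Per the labels no left ear, here or among the ethanol ears, was given a drug, and whether any drug applied to the right ear reached it was not tested. Left ears of 4 animals whose right ear had indomethacin before mustard (17, 18, 19 and 22) were set against left ears of 13 animals whose right ear had mustard alone (4), dimercaprol (4) or octylhomovanillamide (5) before mustard. They differed in 32 of 15925 probe sets (0.201%), 23 higher and 9 lower, and without scaling in 12, all higher. With 1 probe set per gene, 12 genes rose (0.125%) and 8 fell (0.0834%). Of the 15 genes that were higher in indomethacin ears, 14 were higher here too, 11 at an unadjusted p under 0.05 (3.28% of all genes) and 8 past adjustment.

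Txnip 1415996_at read 5094, 6453, 7607 and 4908 in left ears 17, 18, 19 and 22, and 1408 to 2786 with a median of 1877 in the other left ears. The groups were far apart, with a rise of 1.61 ± 0.15 (SE; adjusted p = 1.55e-05). Tsc22d3 1420772_a_at read 3454, 4429, 3907 and 3214, and 743 to 3205 with a median of 1390.0 in the others. The highest of the others was just below the lowest left ear of the indomethacin animals, and the rise was 1.42 ± 0.25 (SE; adjusted p = 0.0102).

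Ddit4 read 2152, 3113, 4058 and 2369 against 830.0 to 1772 in the others, without overlap, and rose by 1.22 (adjusted p = 0.00198). Errfi1 rose by 1.24 (adjusted p = 0.0039), with 1 of the other left ears inside the range. Mt1 rose by 0.83 (adjusted p = 0.00197), Sesn1 by 0.78 (adjusted p = 0.00755) and Pdk4 by 1.15 (adjusted p = 0.0102). Cebpd rose by 0.97 (adjusted p = 0.031), Cited2 by 0.50 (adjusted p = 0.031) and Trp53inp1 by 1.06 (adjusted p = 0.0241). Fkbp5 was higher by 1.02 without passing (adjusted p = 0.0738), and Angptl4 by 0.31 (adjusted p = 0.703).

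Of the 11 genes of the glucocorticoid list, 7 were higher at an unadjusted p under 0.05 (3.28% of all genes) and 4 passed (0.125% of all genes), with a median of 0.57. Its summed signal was 15630, 21100, 22750 and 18110 in left ears 17, 18, 19 and 22. In the 13 other left ears it was at most 16010, in the left ear of mustard animal 37, and otherwise at most 12930. Left ears without a right ear on array A were left out of both groups. Among these the sum was 15970 in animal 38 and 9079 to 10950 in the rest.

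Of the 15 genes that were lower without mustard, 12 were lower in the left ears, 4 at an unadjusted p under 0.05 (4.53% of all genes), and 1, Kpna2, fell, by 0.54 (adjusted p = 0.0102). Irx4 differed by −1.01 (adjusted p = 0.178) and Yrdc by −0.11 (adjusted p = 0.878). Among genes that fell in left ears, Dbp, a clock-controlled transcription factor, read 630, 851, 340 and 1044 against 1041 to 1814, and its fall was by 1.17 (adjusted p = 0.00479). Hells, a DNA helicase of dividing cells, fell by 0.98 (adjusted p = 0.00255). Without mustard, Dbp differed by −0.55 and Hells by −0.36, and neither passed. When the difference without mustard was set against that of the left ears, no probe set passed by limma, with 887 of 15925 at an unadjusted p under 0.05. Of the 15 higher genes 3, and of the 15 lower genes 7, were at an unadjusted p under 0.05 in this comparison. These genes were ranked on the values without mustard, so the counts are a description. Calls in left ears numbered 39, 15, 12 and 46 without left ears 17, 18, 19 and 22.

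**Figure D4:**
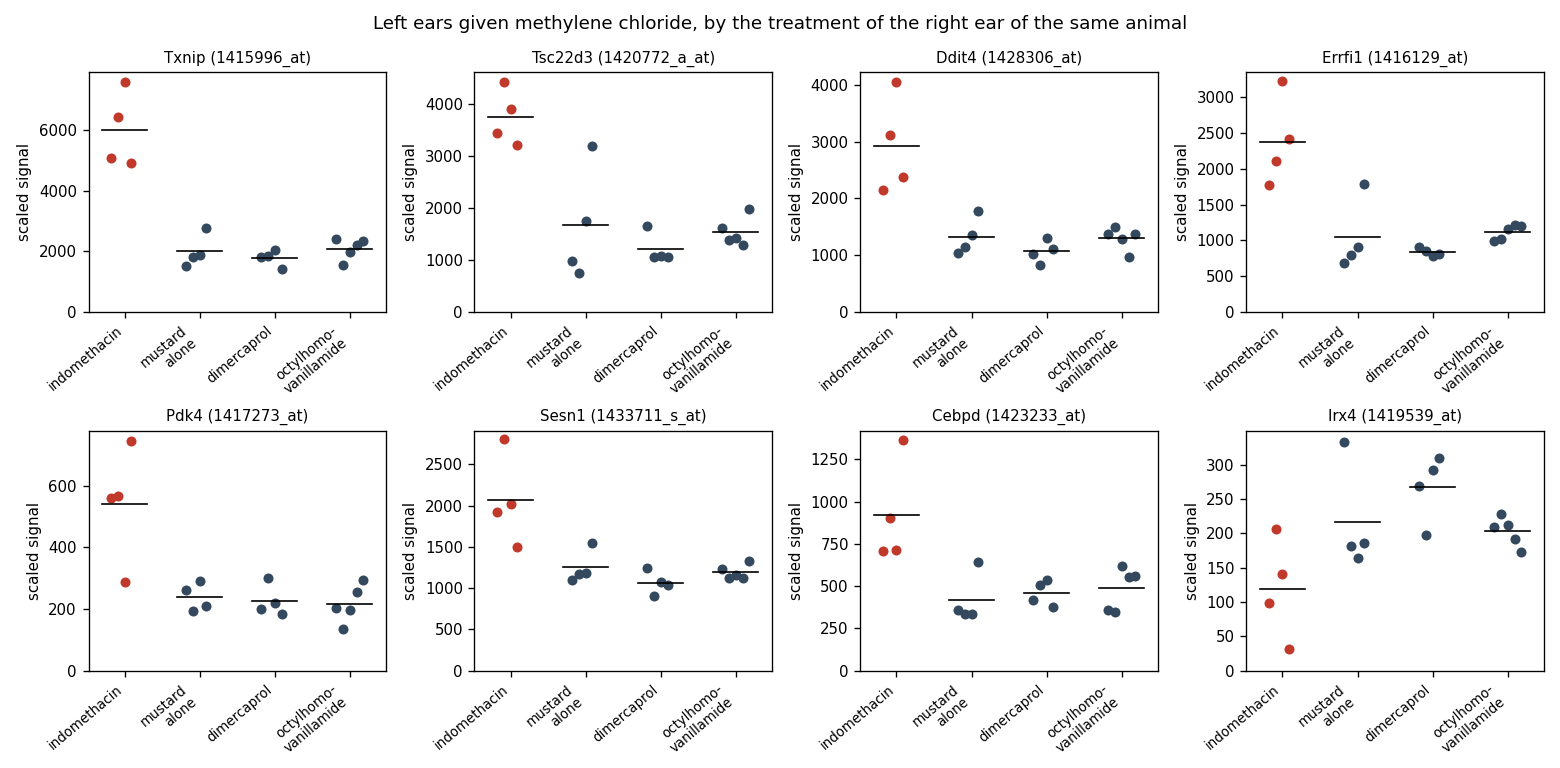
Scaled signal (vertical axes, linear, from 0) in left ears given methylene chloride, by the treatment of the right ear of the same animal. Points are ears and black lines are group means. Left ears of the 4 indomethacin animals lie above all 13 others for Txnip, Tsc22d3, Ddit4 and Cebpd and overlap them for Errfi1, Pdk4, Sesn1 and Irx4. Left ears without a right ear on array A are not shown. For Cebpd that of animal 38 read 880.5, above left ears 17 and 19 of the indomethacin animals (708.6 and 711.7).

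In right ears that had mustard, indomethacin before mustard differed from mustard alone in 298 probe sets (1.87%), 193 higher and 105 lower, and without scaling in 5298, of which 5295 were higher. None of the 15 higher or 15 lower genes was among them, and the median differences were 0.18 and −0.01. The effect of indomethacin differed between ears with and without mustard in 33 probe sets (0.207%). These ears came from different animals, numbered apart, so that a difference between the sets of animals cancels only if it is additive. Of the 30 genes, Angptl4 passed this test (−2.05, adjusted p = 0.0416), at 156 to 653 (median 521) in the 6 ears with indomethacin before mustard and 302 to 1018 in the 5 mustard ears. Cdc42se1 passed too (0.69, adjusted p = 0.0275). The 30 genes were ranked on the values without mustard, which this test also uses, so that these passes are a description. Both went in the direction opposite to the difference that ranked the gene. Mustard ears had no ethanol before mustard, so that indomethacin and its vehicle cannot be told apart there.

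The genes of the pathway that indomethacin acts on showed no called change in their RNA. Of the listed prostaglandin genes 20 were measured: 11 of 14 for synthesis, 3 of 9 receptors and 6 of 7 for transport and breakdown. The synthesis list also holds Gm2a, a lipid-binding protein that is no prostaglandin synthase. None passed adjustment by limma. At an unadjusted p under 0.05, 3 were higher and 3 lower, where 5.64% and 5.03% of all genes were. Ptgs1, Ptges3, Akr1b3 and Abcc4 were not analysed here, and Ptger1, Ptger2, Ptger3, Ptgdr, Ptgdr2 and Ptgir were below the signal minimum.

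For synthesis, Ptgs2, the inducible cyclooxygenase, read 115, 178, 115 and 108 in indomethacin ears, 154, 157 and 101 in ethanol ears and 92.3 to 180 in naive ears. The groups overlapped and the difference was −0.10, with a 95% interval of −0.53 to 0.33. Pla2g4a, the phospholipase that frees arachidonic acid, differed by −0.34 (unadjusted p = 0.0289, adjusted p = 0.425) and Prxl2b, a prostamide and prostaglandin F synthase, by −0.32 (unadjusted p = 0.0162, adjusted p = 0.37). The synthases Ptges, Ptges2, Ptgds, Hpgds, Ptgis and Tbxas1 and the reductase Cbr1 lay between −0.37 and 0.33, as did the listed Gm2a.

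Of the receptors, Tbxa2r for thromboxane was higher by 0.43 and Ptger4 for prostaglandin E by 0.31, at adjusted p-values of 0.38 and 0.434, and Ptgfr differed by 0.16. In breakdown, Hpgd, which oxidises prostaglandins to inactive products, read 597, 609, 668 and 448 in indomethacin ears. It read 451, 478 and 359 in ethanol ears and 294 to 460.1 in naive ears. The lowest indomethacin ear overlapped the highest control ears, and the difference was 0.58 (adjusted p = 0.172). Akr1c18, a hydroxysteroid dehydrogenase that also reduces prostaglandins, read 247, 157, 143 and 173 in indomethacin ears, 408, 200.1 and 401 in ethanol ears and 266 to 440 in naive ears, with a difference of −0.85 (adjusted p = 0.188). The transporter Slco2a1, Abcc1 and the reductases Ptgr1 and Ptgr2 lay between −0.21 and 0.17.

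**Figure D5:**
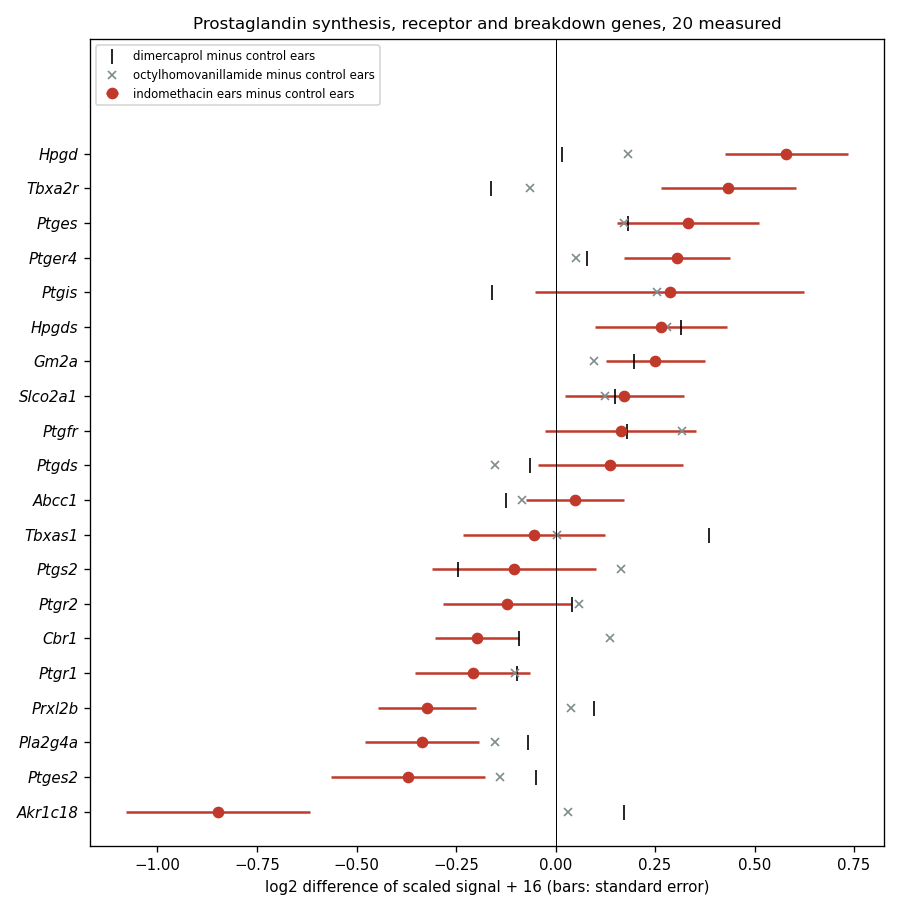
Differences from control ears on the log2 scale (horizontal axis, bars are standard errors) of the 20 measured genes listed under prostaglandin synthesis, reception and breakdown, with Gm2a among them. Circles are indomethacin ears, bars dimercaprol ears and crosses octylhomovanillamide ears. Hpgd (0.58) and Akr1c18 (−0.85) stand at the ends, and none passed adjustment.

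Other lists held no called gene by limma, and their counts at an unadjusted p under 0.05 stand beside 5.64% of all genes higher and 5.03% lower. Of 20 PPAR target genes, which serve fat oxidation, 5 were higher at an unadjusted p under 0.05 and none lower. They were Angptl4, Pdk4, the uncoupling protein Ucp3 (0.56), the lipid droplet protein Plin5 (0.50) and Cpt1a (0.31), which carries fatty acids into mitochondria. Of 16 cholesterol synthesis genes 5 were lower, among them Lss (−0.51), Fdps (−0.44) and Mvd (−0.40), and the median was −0.23. Of 21 genes of the endoplasmic reticulum stress response 5 were lower, among them the chaperone Hspa5 (−0.43) and Atf4 (−0.27), with a median of −0.03 (−0.58 to 0.47). Of 23 proliferation genes 4 were lower, with a median of 0.01 (−0.75 to 0.36). Of 28 hair follicle genes 2 were lower, Krt35 (−1.23) and Hoxc13 (−0.79), and 1 higher, Lgr5 (0.38), with a median of −0.68. Their summed signal was 13320 to 18800 in indomethacin ears and 15160 to 44240 in control ears, where naive ear 501 alone stood above 23260. Of 15 circadian clock genes 1 was lower and the median was 0.01. Of 16 p53 target genes 4 were higher and 2 lower, with a median of −0.07 (−0.37 to 1.15). Of 18 glycolysis and hypoxia genes 4 were higher and 1 lower, with a median of 0.125.

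The biopsies read as ear skin: 8 keratinocyte genes summed to 110300 to 152700 in indomethacin ears and 108900 to 170100 in control ears, and 24 skeletal muscle genes to 101500 to 134100 and 84030 to 122900. In such tissue fewer cells of a type and less RNA per cell cannot be told apart. No cell type marker was called by limma, and the summed levels of all cell type lists overlapped between groups, with no kept marker averaging under 100 in control ears. Indomethacin ear 512 had the highest macrophage sum (14580, against 6347 to 9496 in control ears) and mast cell sum (5004, against 1980 to 2747). Deposited array brightness spanned 98.8 to 114 in indomethacin ears and 67 to 163 in control ears, and log2 of the Gapdh 3′ signal over its 5′ signal spanned −0.29 to 0.11 and −0.18 to 0.30. In left ears, the skeletal muscle sum was 35100 in ear 19 and 111900 to 181900 in ears 17, 18 and 22, against 67910 to 194300 in the other 13. Their part in the results was not tested beyond the covariates given at the end. Those covariates were fitted for indomethacin minus control only, and none was fitted for the left ears.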

How the data were processed

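RNA of mouse ear biopsies (10 µg of total RNA) was hybridised to array A, and the 43 ears also measured on array B were not used from that array. Per the submitters' processing notes, MAS5 gave the probe set signals, and the authors deposited them as linear intensity values. Their scaling is not given in the sources used here.

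Trimmed means (2% at each end) of the 21 ears without mustard differed by up to 2.44 times, so every array was brought to a trimmed mean of 500. A pseudocount of 16 was added before log2 was taken. Of 22690 probe sets, 64 control probe sets were left out and 15925 whose scaled signal averaged 100 or more over the 64 ears were kept, representing 9598 genes. The array's annotation gave 1 symbol for 20393 probe sets, several for 691 and none for 1606. A gene was represented by its brightest kept probe set.

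The 19 values without mustard (3 naive animals, 3 ethanol, 4 dimercaprol, 4 indomethacin and 5 octylhomovanillamide ears) shared a limma 3.58.1 fit (lmFit, eBayes with trend; R 4.3.3, the data.table package, version 1.17.8), with naive and ethanol as the control. Tests were 2-sided, with Benjamini-Hochberg adjustment over all kept probe sets and a threshold of 0.05. Indomethacin before mustard was compared with mustard alone in a fit of all array A ears of the mustard experiment. Left ears were compared in a fit of the compared left ears only. Comparisons between differences used all array A ears, with naive ears averaged. The fit of indomethacin minus control was tried on simulated independent values with shifts larger than most differences reported here. Smaller differences and ears that share an animal were not simulated.

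Named were the 15 genes highest and the 15 lowest by fold among called genes with all 4 indomethacin ears on 1 side of the control mean, filled by the smallest unadjusted p. To these came all called probe sets, measured prostaglandin and glucocorticoid genes, up to 4 called genes of each list and the 5 largest called differences of other contrasts. Other list members were named after their values were seen. The groups, members and lists were chosen with earlier results of these data known. Alternatives changed the scaling, pseudocount, filter, variance trend, control, blocks and covariates, and left out each animal. Array data hold no read depth, and precision is limited by how many ears there are. Labels give the ears of an animal 1 number; the pairing of ears of different treatment was checked over animals 507, 515 and 520, whose ears correlated at −0.11, 0.06 and −0.07 after removal of group means, and was not used.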

Additional observations from a re-analysis of the deposited data

Results flagged for a closer look

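Of 126 groups of ears tested for a stray value, 7 held one, about as many as chance gives (about 1 in 20). Each ratio below is the gap to the nearest ear over the whole range of the group. Among the indomethacin ears, animal 511 stood above the others for Irx2 (ratio 0.847; 10.15 on the log2 scale against 9.69 to 9.77) and Ddit4 (0.831; 12.60 against 11.36 to 11.57). Animal 512 stood above the others for Ptgs2 (0.883; 7.60 against 6.96 to 7.03), and animal 515 for Prxl2b (0.958; 11.23 against 10.97 to 10.98). Among the control values, naive animal 501 was low for Dnajb8 (0.637; 7.59 against 7.95 to 8.15). Naive animal 502 was high for Ptger4 (0.725; 8.76 against 8.30 to 8.43), and the ethanol ear of animal 515 was high for Gm2a (0.636; 10.64 against 10.12 to 10.31).

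For 2 of the named genes of the comparison, the effect of indomethacin with mustard minus that without passed the threshold. These genes were ranked on the values without mustard, which enter this difference, so that the passes are a description. The ears with and without mustard came from different sets of animals with unlike controls, and the part of the set was not tested. For Angptl4 the effect with mustard minus that without was −2.05 (limma, adjusted p = 0.0416). For Cdc42se1 it was 0.69 (limma, adjusted p = 0.0275).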

How the results depend on the processing

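Indomethacin minus control gave 9 called probe sets. It gave 0 without scaling or against ethanol ears alone, 33 against naive animals with the ethanol ears left out of the fit (26 with them kept in it), 4 with only indomethacin and control ears fitted, 14 with the skeletal muscle mean and 2 with the 3′ to 5′ Gapdh ratio as a covariate, and 3 without the variance trend. No filter on low values gave 6. With 5 naive ears and the animal as a random block it was 48, and with the animal as a random block over averaged naive values 10. Leaving out each animal or ear gave 0 to 36, and for the glucocorticoid list 8 to 10 members higher at an unadjusted p under 0.05; against ethanol ears this count was 6. Indomethacin minus naive gave 2 without scaling. Indomethacin minus dimercaprol gave 0 without scaling, 2 after quantile normalization, 10 with a pseudocount of 64 and 11 with a higher signal minimum. Indomethacin before mustard gave 5298 without scaling, 5295 of them higher, and left ears gave 12. The difference between ears with and without mustard gave 0 without scaling and 59 after quantile normalization. Left ears gave 62 when left ears of 4 animals without a right ear on array A joined the others, and 12 to 46 when each left ear of an indomethacin animal was left out. The 84 gene results had 1810 alternatives in all, and 30 of the results were called as reported. In 1568 alternatives the result was the same: called both times in the same direction, or uncalled both times and shifted by at most its SE. An uncalled result near 0 could thereby change sign and count as the same. Another 34 uncalled results moved by more than their SE, 140 results lost the call and 68 gained it. There were 0 reversals, meaning a change of sign where either value was called or both exceeded their SE. Txnip 1415997_at was called in 23 of 26 alternatives, Cebpd 1456605_at in 19 of 25 and Yrdc in 18 of 26. The others kept the call less often: Tsc22d3 in 15 and 14 of 26 for its 2 probe sets, Sostdc1 in 15, Fkbp5 in 13 and 1451979_at in 12 of 26, and Irx4 in 12 of 25. The cause of these changes was not tested, other than that fewer ears or probe sets were used where stated.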
